A study of Mus musculus with 4 samples.

Results

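The nuclear genes of respiratory complexes III, IV and V were measured by RNA sequencing in pancreatic islets. The mice were 129sv animals at an age of 2 weeks, either knockout (KO; genotype label Ngn3Mettls KO) or wild type (WT), with 2 libraries per genotype. A library pooled over 400 islets, and no label ties a pool to its own animals, so p-values here measure the spread between pools. The labels give neither the deleted genes or exons nor the driver of the deletion, and they name no agent for either group. Genes were taken by name: symbols starting with Uqcr, Cox4, Cox5, Cox6, Cox7, Cox8 or Atp5, with Cyc1 and Cycs added. Names matched in 46 of the 22564 deposited rows, and the 38 with a mean estimated count of at least 5 over the 4 libraries were kept. They were 9 genes of complex III including Cyc1, the cytochrome c gene Cycs, 11 genes of complex IV and 17 of complex V. The gene just inside that limit was Atp5k, with a mean count of 9.50, and the one just outside was Cox4i2, with 3.80. All 38 were abundant enough to be tested.

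Complex III passes electrons from ubiquinol to cytochrome c, and complex IV (cytochrome c oxidase) passes them on to oxygen. Both pump protons across the inner mitochondrial membrane, and complex V (ATP synthase) uses the returning protons to make ATP. In beta cells the ATP made from glucose closes a potassium channel of the cell membrane and so triggers insulin release. Most subunits are encoded in the nucleus, and a few core subunits are encoded by mitochondrial DNA.

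With the authors' scaling undone, the KO libraries held 5132726 and 4057724 fragments and the WT libraries 5232258 and 4347110. Normalised values are given as CPM, the estimated count scaled to a common library size after edgeR's TMM normalisation. FPKM, the authors' value scaled to transcript length and library size, is used where genes are compared with each other. Library values are listed in the order of the replicate numbers. Of the genes that the knockout's name points to, Mettl14 had 14.1 and 15.6 CPM in KO against 21.4 and 21.7 CPM in WT, Mettl3 had 18.6 and 17.1 CPM in KO against 29.3 and 17.1 CPM in WT, and neither passed the test (edgeR adjusted p = 0.369 and 0.634). A total over a gene cannot show whether some of its exons were deleted. Islet hormone genes were abundant in all 4 libraries. The 6 beta cell markers summed to 42169 and 43783 CPM in KO against 60637 and 44418 CPM in WT, and the 4 alpha cell markers to 47806 and 60357 CPM in KO against 41776 and 43865 CPM in WT. Both sums follow the hormone genes. Of the 6 beta cell markers 5 had a negative log2 fold change. At an unadjusted edgeR p under 0.05, 4 were lower and 1 was higher in KO. DESeq2 called 5 of the 6, counted without regard to direction. edgeR called Mafa, at 15.0 and 5.02 CPM in KO against 110 and 120 CPM in WT, and Nkx6-1, at 173 and 187 CPM in KO against 347 and 327 CPM in WT (adjusted p = 0.0341 and 0.0411). Iapp ran the other way, at 10597 and 11705 CPM in KO against 7817 and 7683 CPM in WT (edgeR adjusted p = 0.122). The PP cell hormone gene Ppy was called higher, at 1074 and 801 CPM in KO against 375 and 348 CPM in WT (edgeR adjusted p = 0.0348). It was the only delta or PP cell marker that edgeR called. The KO and WT libraries overlapped for the other listed ones, Sst, Hhex and Pyy. Mean CPM in KO was lower for Sst and higher for Hhex and Pyy. The 6 immune markers summed to 134 and 99.6 CPM in KO against 86.3 and 61.3 CPM in WT, and the 6 striated muscle markers to 1.14 and 2.26 CPM in KO against 0.193 and 0.693 CPM in WT, with 3 of the 6 at 0 in every library. Other sums were larger. The 6 acinar markers summed to 1992 and 4130 CPM in KO against 4371 and 3111 CPM in WT. The 4 mesenchymal markers summed to 781 and 706 CPM in KO against 1351 and 558 CPM in WT. The 4 endothelial markers summed to 643 and 555 CPM in KO against 623 and 514 CPM in WT. In pooled islets, fewer cells of a type and less RNA per cell cannot be told apart. The part of these cell type markers in the values below was not tested.

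None of the 38 genes passed the test across all genes. edgeR's quasi-likelihood test called 0 of 38 at a Benjamini-Hochberg adjusted p under 0.05, against 0.227% of the 12789 genes tested (0.133% higher and 0.0938% lower in KO). At an unadjusted p under 0.05 there were 4 of 38 (10.5%), against 12.6% of all genes tested. They were Uqcrfs1 and Cox7a2l, with higher values in KO (background 6.51%), and Uqcrc2 and Atp5j, with lower values in KO (background 6.04%). DESeq2 called 1 of the 38, Uqcrfs1, against 1.16% of all genes, and limma on log2(FPKM + 1) called 0 of the 38 and 0 of all genes, with 6 of the 38 (15.8%) at an unadjusted p under 0.05, against 10.9% of all genes in that fit.

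The log2 fold changes (KO minus WT) lay on both sides of 0, with 18 positive and 20 negative. Their median was -0.028, against 0.005 over all genes tested, and they reached from -0.92 for Atp5k to 0.84 for Uqcrfs1. Of the 38 genes 27 (71.1%) lay within 0.25 of 0, against 57.4% of all genes tested. Their log2 fold changes also had smaller standard errors, at a median of 0.161 against 0.203 over all genes tested. The part of that precision in the narrower spread was not tested. The 95% interval of the log2 fold change lay within 1 of 0 for 33 of the 38 genes and left out 0 for 4. The distance from the estimate to either end of its interval had a median of 0.38, so a change of that size could be missed in a typical gene of the group. These intervals are not adjusted for the number of genes tested, and larger differences also went uncalled, such as 0.84 for Uqcrfs1. In 20 of the 38 genes (52.6%) the KO and WT libraries did not overlap, against 44.9% of all genes tested. Both KO libraries lay above both WT libraries in 8 (background 22.7%) and below them in 12 (background 22.2%).

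**Figure D1:**
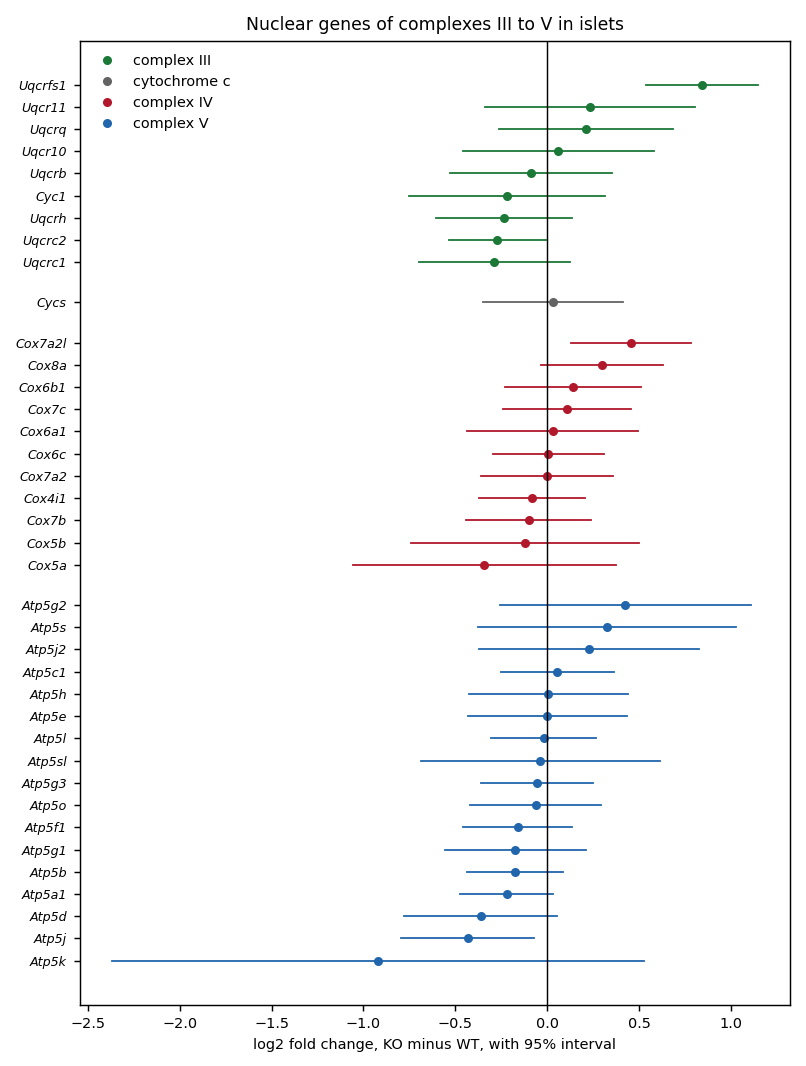
Log2 fold change, KO minus WT, of the 38 nuclear genes of complexes III to V, with the 95% interval from edgeR's quasi-likelihood fit over 2 KO and 2 WT libraries. Genes are grouped and coloured by complex and sorted within it. Uqcrfs1 stands farthest to the right at 0.84, Atp5k has the widest interval, and most of the other genes lie close to 0.

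These genes were well expressed. The median of their mean FPKM was 60.4, against 10.9 over all genes tested, and 35 of the 38 lay above that second value. The highest level per length was that of Atp5b, the catalytic beta subunit of ATP synthase, at a mean of 257 FPKM over the 4 libraries. Atp5l followed at 205 FPKM, Cox6c at 177 FPKM and Atp5a1 at 159 FPKM. The lowest were Atp5s at 6.30 FPKM, Atp5k at 7.09 FPKM and Atp5sl at 8.29 FPKM. Atp5k rests on few fragments, an estimated 8 and 5 in the KO libraries against 12 and 13 in the WT libraries.

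Promoters of nuclear respiratory genes are known for binding sites of NRF1, of the ETS factor GABP and of YY1. RefSeq promoters of build GRCm38.p6, from 250 bases before to 50 after the start, were found for 31 of the 38 genes, and 3 motifs were searched on both strands. The NRF1 motif was searched with any base allowed at a central position, so a match need not be palindromic. It was in a promoter of 8 of the 31 genes (25.8%), against 11.3% of the 9879 other tested genes with a promoter. The ETS motif CCGGAAG was in 10 of 31 (32.3%), against 19.6%, and the YY1 motif AAGATGGCG in 3 of 31 (9.68%), against 3.51%. Among all 32851 promoters of the table the shares were 4.60%, 8.86% and 1.40% in the same order. Genes with a motif lay on both sides of 0 in KO against WT: 4 positive and 4 negative with the NRF1 motif, 6 and 4 with the ETS motif, 1 and 2 with the YY1 motif. A match describes the letters only, and binding was not measured here. The 4 promoters below belong to genes described further on and show the motifs in place. Each is printed 5′ to 3′ on the gene's strand, with motif matches in capitals and the rest in lower case.
Uqcrfs1, chr13:30545267-30545566, minus strand, no match to the 3 motifs: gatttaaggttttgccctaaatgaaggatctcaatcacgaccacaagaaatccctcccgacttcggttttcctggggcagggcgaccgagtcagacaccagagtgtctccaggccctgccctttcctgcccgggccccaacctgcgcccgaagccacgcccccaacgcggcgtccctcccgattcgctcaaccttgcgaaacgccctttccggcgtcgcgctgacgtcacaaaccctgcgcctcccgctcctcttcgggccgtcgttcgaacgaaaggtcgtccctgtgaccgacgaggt
Uqcrc1, chr9:108936398-108936697, plus strand, NRF1 motif in capitals: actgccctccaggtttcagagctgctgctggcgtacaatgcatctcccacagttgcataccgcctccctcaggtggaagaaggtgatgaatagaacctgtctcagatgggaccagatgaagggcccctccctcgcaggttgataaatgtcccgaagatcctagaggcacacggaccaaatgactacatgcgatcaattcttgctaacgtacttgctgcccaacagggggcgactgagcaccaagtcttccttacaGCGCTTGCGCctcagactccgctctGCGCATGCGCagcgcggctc
Cox8a, chr19:7217567-7217866, minus strand, ETS motif in capitals, read on the opposite strand as CTTCCGG: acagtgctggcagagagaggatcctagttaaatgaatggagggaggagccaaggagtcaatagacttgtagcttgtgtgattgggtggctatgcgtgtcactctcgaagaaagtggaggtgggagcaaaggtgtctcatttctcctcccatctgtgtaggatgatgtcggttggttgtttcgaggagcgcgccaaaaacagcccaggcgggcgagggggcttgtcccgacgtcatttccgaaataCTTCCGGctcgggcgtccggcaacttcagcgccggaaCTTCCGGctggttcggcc
Atp5j, chr16:84834927-84835226, minus strand, YY1 and ETS motifs in capitals: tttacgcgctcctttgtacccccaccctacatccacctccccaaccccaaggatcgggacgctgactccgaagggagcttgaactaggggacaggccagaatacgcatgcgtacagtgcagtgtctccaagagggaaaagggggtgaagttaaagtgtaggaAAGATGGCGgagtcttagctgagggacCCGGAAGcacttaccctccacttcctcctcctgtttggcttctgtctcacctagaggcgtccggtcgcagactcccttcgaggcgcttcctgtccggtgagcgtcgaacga

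In complex III the 4 genes of its catalytic and core proteins differed in direction, and the Rieske protein stood apart from the rest. Uqcrfs1 encodes the Rieske iron-sulfur protein, which takes the first electron from ubiquinol. It measured 78.0 and 77.8 CPM in KO against 44.4 and 42.5 CPM in WT, from an estimated 410 and 310 fragments in KO and 230 and 184 in WT. Both KO libraries lay well above both WT libraries, and the libraries within each group lay close together. The means were 77.9 ± 0.151 CPM in KO and 43.5 ± 1.32 CPM in WT (SD, n = 2 each), a ratio of 1.79. The log2 fold change was 0.84 ± 0.13 SE, with a 95% interval from 0.54 to 1.15 and an edgeR adjusted p = 0.0752. By unadjusted p it was 42nd of the 12789 genes. The deposited FPKM gave the same picture, at 53.6 and 52.4 FPKM in KO against 30.3 and 29.5 FPKM in WT. The gene spans chromosome 13, 30540308 to 30545362 on the minus strand of mm10, with 2 exonic blocks. No other annotated gene overlaps those exons, and no near-identical stretch was found in annotated transcripts of other genes. Copies outside the annotation were not searched for. The span given in the deposited row reaches further, to 30547403, and that part was not checked for overlaps.

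Whether Uqcrfs1 passed the threshold differed between the alternatives run. Its log2 fold change stayed between 0.81 and 0.86 in every count-based alternative run. The adjusted p was 0.0157 with DESeq2 and 0.0341 by edgeR without WT replicate 2, where 1.85% of all genes were called. It passed in 3 alternatives in all, the remaining one being the replicate block, and in no other. By edgeR the adjusted p was 0.0824 with RLE size factors, 0.0791 without the count filter and 0.0737 with the library scaling undone. Leaving out any other single library did not bring it under the threshold either. With limma on log2(FPKM + 1) the adjusted p was 0.217.

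The core proteins Uqcrc1 and Uqcrc2, which form the part of the complex that faces the matrix, had lower values in KO. Uqcrc2 had 103 and 109 CPM in KO against 129 and 127 CPM in WT, with no overlap (edgeR log2 fold change -0.27 ± 0.11 SE, adjusted p = 0.380). On log2(FPKM + 1) its difference was larger, at -0.48. Uqcrc1 had 54.0 and 55.7 CPM in KO against 77.6 and 56.2 CPM in WT. Only WT replicate 1 stood clearly above the KO libraries, and the edgeR log2 fold change of -0.29 ± 0.18 SE (Benjamini-Hochberg adjusted p = 0.545) was -0.05 without it. Its promoter holds the NRF1 matches shown above.

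Cyc1 encodes cytochrome c1, the heme protein that hands electrons to cytochrome c. It had 20.4 and 15.5 CPM in KO against 20.7 and 20.8 CPM in WT, so that KO replicate 2 alone was clearly lower (edgeR log2 fold change -0.22 ± 0.23 SE, adjusted p = 0.745). Without KO replicate 1 the value was -0.44 and without KO replicate 2 it was -0.04.

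The 5 small subunits of complex III had a median log2 fold change of 0.06, with 3 positive and 2 negative. Uqcrh, the hinge protein that helps cytochrome c1 dock cytochrome c, had 28.9 and 30.1 CPM in KO against 35.3 and 34.2 CPM in WT (edgeR log2 fold change -0.24 ± 0.16 SE). Uqcr11 had 19.6 and 19.3 CPM in KO against 13.9 and 19.2 CPM in WT, and its log2 fold change of 0.23 ± 0.25 SE was 0.01 without WT replicate 1 and 0.49 without WT replicate 2. Uqcrq (0.21), Uqcr10 (0.06) and Uqcrb (-0.09) completed the set. Over the 9 genes of complex III the median was -0.089, with 4 positive and 5 negative.

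Cytochrome c, the mobile carrier between complexes III and IV, gave a Cycs level of 55.5 and 58.0 CPM in KO against 48.4 and 62.6 CPM in WT. The KO libraries lay between the WT libraries (edgeR log2 fold change 0.03 ± 0.16 SE, 95% interval -0.35 to 0.41). Transcripts of 4 other annotated genes hold near-identical parts of Cycs, at 95% identity or more over at least 150 bases, so reads could be shared with them.

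**Figure D2:**
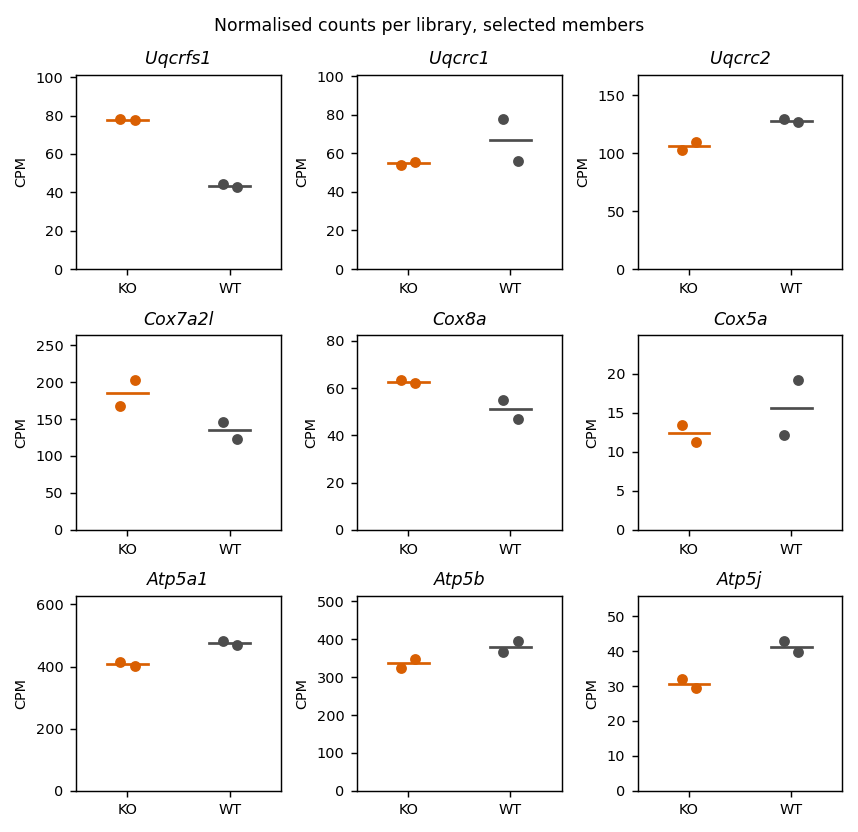
Normalised counts (CPM, linear axes from 0) in each library for 9 genes, with KO libraries on the left and WT libraries on the right of each panel. Points are single libraries and lines are group means. Uqcrfs1 separates widely at 77.9 against 43.5 CPM, while in Uqcrc1 and Cox5a a single WT library lies above the other 3 libraries.

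In complex IV 7 of 11 genes had a positive log2 fold change, and the median was 0.005. KO lay above WT without overlap in 2 genes, Cox7a2l and Cox8a, and below WT in none of the 11 (background 22.7% above and 22.2% below). Cox7a2l encodes a relative of the Cox7a subunit that joins complexes III and IV in a supercomplex. It had 168 and 202 CPM in KO against 146 and 124 CPM in WT. Both KO libraries were above both WT libraries, and the gap between the nearest KO and WT library was no larger than the spread within either group (edgeR log2 fold change 0.46 ± 0.14 SE, 95% interval 0.13 to 0.79, adjusted p = 0.265). Cox8a, the subunit 8 form found in most tissues, had 63.3 and 62.2 CPM in KO against 54.8 and 47.2 CPM in WT (edgeR log2 fold change 0.30 ± 0.14 SE, adjusted p = 0.442). It was 0.20 without WT replicate 2 and 0.40 without WT replicate 1.

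The 2 largest decreases in complex IV each turned on a single WT library. Cox5a, a subunit on the matrix side, had 13.5 and 11.3 CPM in KO against 12.2 and 19.2 CPM in WT. WT replicate 2 alone was high, and the edgeR log2 fold change of -0.34 ± 0.31 SE (Benjamini-Hochberg adjusted p = 0.700) was 0.02 without it. Cox5b, the zinc-binding subunit, had 13.7 and 14.2 CPM in KO against 17.2 and 12.9 CPM in WT, and its edgeR log2 fold change of -0.12 ± 0.27 SE (Benjamini-Hochberg adjusted p = 0.895) was 0.10 without WT replicate 1. The other 7 genes, Cox4i1, Cox6a1, Cox6b1, Cox6c, Cox7a2, Cox7b and Cox7c, had log2 fold changes from -0.10 (Cox7b) to 0.14 (Cox6b1), and their groups overlapped.

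Several subunits of complexes IV and V are encoded by alternative genes, and the islets used the forms known from most tissues. Cox4i1 had 148 and 138 FPKM in KO against 155 and 140 FPKM in WT, while Cox4i2, the form known from lung, was at 1.99 and 0 FPKM in KO against 1.44 and 1.40 FPKM in WT. Cox6a1 had 71.7 and 60.6 FPKM in KO against 74.7 and 57.1 FPKM in WT. Its muscle form Cox6a2 was at 0 in both KO libraries and at 4.31 and 0 FPKM in WT. The testis form Cox6b2 had 1.10 and 3.63 FPKM in KO against 2.09 and 0.690 FPKM in WT, below Cox6b1 at 112 and 126 FPKM in KO and 99.9 and 121 FPKM in WT. The muscle form Cox7a1 was at 0.853 and 0 FPKM in KO and at 0 in WT, whereas Cox7a2 had 59.8 and 56.4 FPKM in KO against 63.3 and 54.8 FPKM in WT. Cox8b, Cox8c and Cox7b2 were at 0 in all 4 libraries, beside Cox8a at 109 to 142 FPKM. A count of 0 allows up to 3 fragments, which is at most 0.753 CPM in the KO libraries and 0.693 CPM in the WT libraries, for counting error only. These 7 isoform genes and the pseudogene Atp5l-ps1, at 1.19 and 0 FPKM in KO and 1.28 and 3.10 FPKM in WT, were the 8 rows that fell under the count limit.

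**Figure D3:**
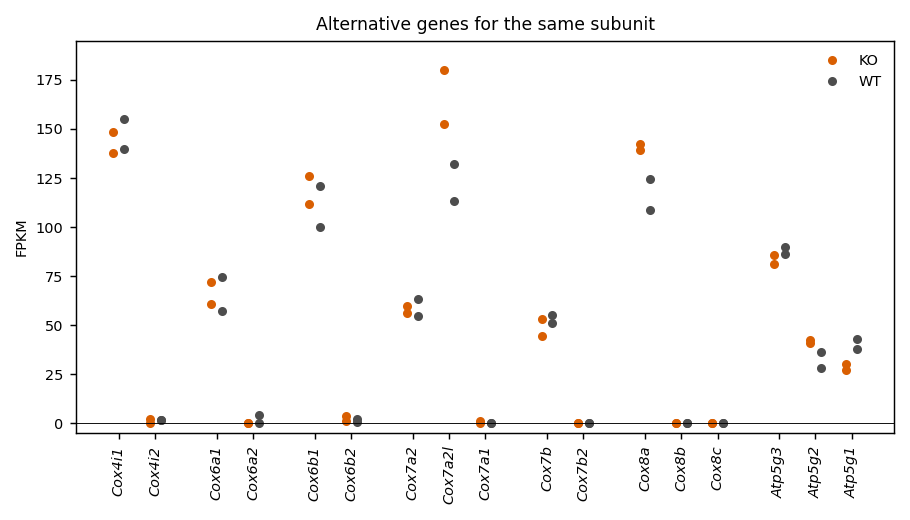
FPKM in each library (linear axis) for genes that encode alternative forms of one subunit, with KO points left of WT points for each gene. The forms Cox4i2, Cox6a2, Cox6b2, Cox7a1, Cox7b2, Cox8b and Cox8c lie at or near 0 in all 4 libraries, at most 4.31 FPKM.

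The c subunit, of which ATP synthase builds its rotating ring, comes from 3 genes whose mature proteins are the same. Atp5g3 was the most abundant, at a mean of 85.6 FPKM over all libraries, against 36.8 FPKM for Atp5g2 and 34.5 FPKM for Atp5g1. The order of the latter genes differed by genotype. By FPKM, Atp5g2 lay above Atp5g1 in both KO libraries and below it in both WT libraries. Atp5g2 had 13.5 and 12.8 CPM in KO against 11.2 and 8.55 CPM in WT, with both KO libraries higher (edgeR log2 fold change 0.43 ± 0.29 SE, 95% interval -0.26 to 1.11, adjusted p = 0.598). It was 0.24 without WT replicate 2 and 0.63 without WT replicate 1. Atp5g1 had 28.5 and 32.6 CPM in KO against 33.8 and 35.1 CPM in WT, lower in both KO libraries (edgeR log2 fold change -0.18 ± 0.16 SE), and its difference on log2(FPKM + 1) was -0.48. Atp5g3 had 56.9 and 55.2 CPM in KO against 57.3 and 58.9 CPM in WT (edgeR log2 fold change -0.06 ± 0.13 SE).

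In complex V 11 of 17 genes (64.7%) had a negative log2 fold change, against 49.3% of all genes tested, with a median of -0.056. KO lay below WT without overlap in 8 of the 17 genes (47.1%) and above it in 3, against backgrounds of 22.2% and 22.7%. None of the 17 was called. The F1 head, which makes ATP, is built from the alpha, beta, gamma, delta and epsilon subunits. Its genes Atp5a1, Atp5b and Atp5d were lower in both KO libraries, and Atp5c1 (0.05) and Atp5e (0.00) overlapped. Atp5a1, the alpha subunit, had 413 and 402 CPM in KO against 482 and 469 CPM in WT (edgeR log2 fold change -0.22 ± 0.11 SE, 95% interval -0.47 to 0.03, adjusted p = 0.453). Atp5b, the beta subunit, had 324 and 349 CPM in KO against 365 and 395 CPM in WT (edgeR log2 fold change -0.18 ± 0.11 SE, 95% interval -0.44 to 0.09, adjusted p = 0.565).

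The direction of Atp5b was not the same in both deposited measures. Its FPKM was 227 and 297 in KO against 234 and 272 in WT, so that the groups overlapped and the difference on log2(FPKM + 1) was 0.04. Cycs (-0.09), Cox7a2 (-0.02) and Atp5e (-0.0024) also changed sign on that scale, each close to 0 in both measures, which makes 4 of the 38 genes. The cause was not tested.

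The peripheral stalk holds the F1 head still while the ring turns. Atp5j, its coupling factor 6, had the largest decrease in complex V after Atp5k. It had 32.0 and 29.4 CPM in KO against 42.8 and 39.8 CPM in WT, with both KO libraries below both WT libraries (edgeR log2 fold change -0.43 ± 0.16 SE, 95% interval -0.79 to -0.07, adjusted p = 0.321). The 5′ end of Atp5j overlaps that of Gabpa, the gene of GABP's DNA-binding subunit, on the other strand, over 397 exonic bases. Gabpa had 66.0 and 86.5 CPM in KO against 70.8 and 73.0 CPM in WT (edgeR log2 fold change 0.08 ± 0.16 SE). The promoter printed above, with its YY1 and ETS matches, belongs to the more downstream of the 2 RefSeq starts of Atp5j. The other stalk genes were Atp5f1 (subunit b, -0.16), Atp5o (OSCP, -0.06) and Atp5h (subunit d, 0.01).

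The delta subunit gene Atp5d had 49.6 and 45.7 CPM in KO against 70.4 and 52.0 CPM in WT, lower in both KO libraries (edgeR log2 fold change -0.36 ± 0.18 SE, adjusted p = 0.454). WT replicate 1 was the highest, and the value was -0.14 without it. Of the membrane subunits e, f and g, Atp5k (subunit e) had 1.52 and 1.25 CPM in KO against 2.32 and 3.01 CPM in WT, with the interval of its log2 fold change reaching from -2.37 to 0.52 (-0.92 ± 0.62 SE, edgeR adjusted p = 0.589). Atp5j2 (subunit f) had a log2 fold change of 0.23 ± 0.26 SE and Atp5l (subunit g) of -0.02 ± 0.12 SE. Near-identical stretches of Atp5l occur in 9 other annotated genes, 8 of them pseudogenes.

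The name rule also took in Atp5s and Atp5sl, which are not core subunits. Atp5s, known as coupling factor B, had 11.6 and 11.0 CPM in KO against 8.11 and 9.94 CPM in WT (edgeR log2 fold change 0.33 ± 0.30 SE, adjusted p = 0.708), and the value was 0.18 without WT replicate 1 and 0.48 without WT replicate 2. Atp5sl, which GENCODE names Dmac2, had a log2 fold change of -0.04 ± 0.28 SE. Without both, complex V had 10 negative values among 15 genes and a median of -0.063.

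Summed over its genes, complex V was lower in KO by counts, and most of the gap came from the F1 head. The 17 genes summed to 1319 and 1345 CPM in KO against 1481 and 1474 CPM in WT, a ratio of 0.901 (means 1332 ± 18.0 CPM in KO and 1478 ± 5.19 CPM in WT, SD, n = 2 each). The 5 genes of the F1 head summed to 896 and 911 CPM in KO against 1028 and 1023 CPM in WT. By FPKM the gap of the 17 genes was smaller, at 1273 and 1292 in KO against 1347 and 1345 in WT. The FPKM of the F1 head overlapped, at 608 and 645 in KO and 642 and 650 in WT. Complex III summed to 372 and 375 CPM in KO against 385 and 368 CPM in WT, a ratio of 0.992. Complex IV summed to 634 and 678 CPM in KO against 627 and 567 CPM in WT, a ratio of 1.10 (means 656 CPM in KO and 597 CPM in WT). Much of that gap came from Cox7a2l, with means of 185 CPM in KO and 135 CPM in WT. By FPKM the libraries of complex IV overlapped, at 1046 and 1113 in KO and 1051 and 980 in WT, a ratio of 1.06. The sums follow their most abundant genes, and no test was made on them.

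**Figure D4:**
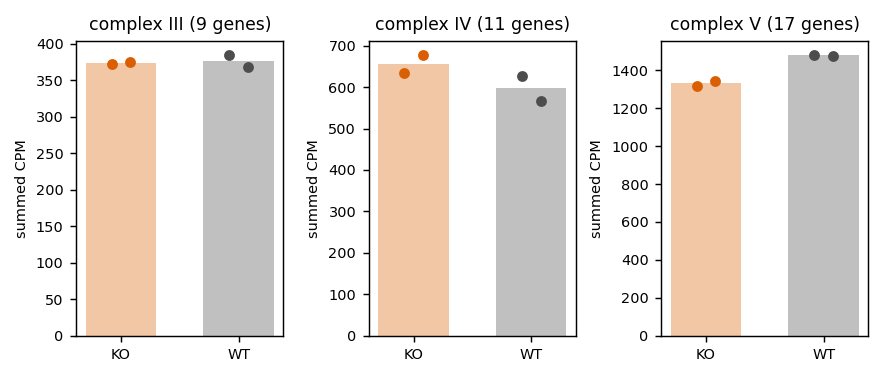
Summed CPM of the genes of complexes III, IV and V (linear axes from 0), with KO left of WT. Bars are group means and points are single libraries. Complex V lies lower in both KO libraries, complex IV lies slightly higher, and complex III overlaps.

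Genes that serve the same complexes were counted from 6 lists, chosen with earlier results of these data known. edgeR called none of the genes of these lists, nor did DESeq2 or limma. Of 5 tested assembly factors of complex III 4 had a positive log2 fold change (median 0.20, 0 at an unadjusted p under 0.05). Bcs1l, which places the Rieske protein in the complex, had 14.3 and 11.5 CPM in KO against 9.65 and 9.48 CPM in WT, higher in both KO libraries (edgeR log2 fold change 0.43 ± 0.29 SE, adjusted p = 0.588). Of 25 tested assembly factors of complex IV 15 were positive (median 0.09), with 3 higher and 1 lower in KO at an unadjusted p under 0.05. The share of all genes tested at that p was 6.51% higher and 6.04% lower. With 25 genes the counts are small, and no test set them against that background. The 3 higher ones, named after their values were seen, were Coa6, Sco2 and Cox15. Coa6 and Sco2, both needed to load copper into the enzyme, had log2 fold changes of 1.28 and 1.20. Coa6 measured 10.8 and 12.5 CPM in KO against 5.60 and 3.93 CPM in WT (edgeR adjusted p = 0.234), with both KO libraries clearly higher. Sco2 measured 5.70 and 5.66 CPM in KO against 2.16 and 2.77 CPM in WT (edgeR adjusted p = 0.355). Cox15, needed to make heme A, had 49.5 and 46.9 CPM in KO against 35.5 and 35.4 CPM in WT (edgeR log2 fold change 0.44 ± 0.14 SE, adjusted p = 0.280). The lower one was Cmc1, a chaperone of early complex IV assembly. It was near 0 in both KO libraries, at 0.00016 and 0.00017 CPM, and measured 6.17 and 2.85 CPM in WT (edgeR adjusted p = 0.130). Those KO values are fractions of a fragment, as estimated counts can be. Cmc1 passed the threshold in some alternatives only.

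Of 6 genes for the assembly and regulation of complex V 5 were negative (median -0.19, 0 at an unadjusted p under 0.05). The largest change was that of Atpaf1, which binds the beta subunit during assembly of F1, with 8.18 and 9.78 CPM in KO against 9.65 and 12.7 CPM in WT (edgeR log2 fold change -0.31 ± 0.32 SE, adjusted p = 0.735). Of 9 regulators of mitochondrial genes 4 were positive and 5 negative (median -0.03, 0 at an unadjusted p under 0.05). Esrra, a nuclear receptor that drives such genes, had 5.90 and 6.52 CPM in KO against 8.49 and 11.3 CPM in WT, lower in both KO libraries (edgeR log2 fold change -0.68 ± 0.35 SE, adjusted p = 0.469). Of 15 genes of mitochondrial mass and cristae 5 were positive and 10 negative (median -0.06, 0 at an unadjusted p under 0.05). Phb, a scaffold protein of the inner membrane, had 29.1 and 19.3 CPM in KO against 34.2 and 35.1 CPM in WT (edgeR log2 fold change -0.52 ± 0.22 SE, adjusted p = 0.397).

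The subunits encoded by mitochondrial DNA could be compared only in part. mt-Co1, the catalytic subunit of complex IV, had 6869 and 6404 CPM in KO against 5914 and 4080 CPM in WT, higher in both KO libraries (edgeR log2 fold change 0.41 ± 0.17 SE, adjusted p = 0.386). The value was 0.17 without WT replicate 2 and 0.69 without WT replicate 1, where mt-Co1 was called (edgeR adjusted p = 0.0448). mt-Cytb, the cytochrome b of complex III, had 1202 and 1484 CPM in KO against 1157 and 1528 CPM in WT, without separation of the groups. mt-Co2 had 26.6 and 785 CPM in KO against 27.6 and 1571 CPM in WT, and mt-Co3 had 66.2 and 2222 CPM in KO against 42.5 and 4058 CPM in WT. Both were low in the libraries numbered 1 and high in those numbered 2, in KO and WT alike, and mt-Atp6 and mt-Atp8 had estimates near 0 in every library. The cause of that split was not tested.

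**Figure D5:**
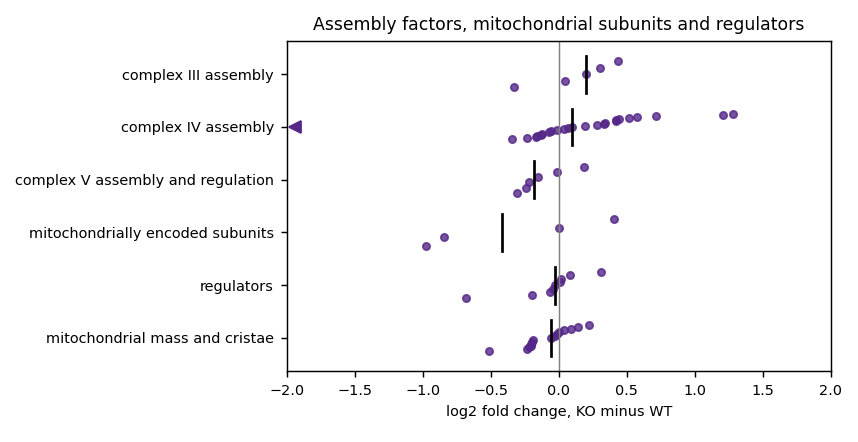
Log2 fold change, KO minus WT, from edgeR for each tested gene of the 6 lists (linear axis). Points are genes, spread vertically for legibility, black bars are list medians, and the arrowhead at the left edge marks Cmc1, which lies off the axis. The medians lie between -0.42 for the mitochondrially encoded subunits and 0.20 for complex III assembly. The median of the mitochondrially encoded subunits rests on 4 tested genes. Among them are mt-Co2 and mt-Co3, which differed strongly between libraries of the same genotype.

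Transcripts of these genes are short. The longest basic coding transcript in GENCODE M21 had a median of 823.5 bases over the 38 genes (371 to 4715), against 3313 bases over 12557 other tested coding genes. GGACT, a common form of the sequence at which m6A is written by Mettl3 and Mettl14, occurred a median of 1 time per transcript, against 3 times in the other genes. It was absent from 9 of the 38 transcripts (23.7%), against 6.87% of the others, while its median number per kilobase was 1.21 against 1.04. Methylation itself was not measured here.

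Some values are uncertain because reads can be shared between genes. In 11 of the 38 genes exons overlap those of a gene on the other strand, among them Uqcrc2 (504 bases, with Pdzd9), Atp5j and Atp5a1 (129 bases, with Haus1). The libraries were strand-specific, but whether counting used the strand is not given in the sources used here. In 2 genes, Atp5g2 and Atp5o, exons overlap a gene record on the same strand. For 19 of the 38, annotated transcripts of at least 1 other gene hold a near-identical stretch. Genes overlapping at the same place were not set apart, so this count can include some of the overlaps above. Uqcrfs1 and Cox8a are among the genes with neither an overlap nor such a stretch in this annotation. Others include Cyc1, Uqcrc1, Uqcrh and Atp5b.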

How the data were processed

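RNA from 2 KO and 2 WT islet pools was sequenced as 150-base paired ends after removal of ribosomal RNA, per the labels' protocols. The submitters' processing notes name cutadapt 1.9.3, HISAT2 2.0.4, Cufflinks, Cuffdiff and build mm10, and no source used here gives the gene annotation. The authors deposited an estimated count and an FPKM per gene and library, per the file headers. The estimated counts are scaled per library: 92.6% to 93.2% of values came out whole, within 0.1, when divided by a library's step of 0.901 (KO replicate 1), 1.15 (KO replicate 2), 0.901 (WT replicate 1) or 1.09 (WT replicate 2), and all 4 values were whole in 36 of the 38 genes. Depth and common biological variation (16.0%) set the precision.

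Rows of the 79 repeated symbols were summed, counts rounded, filtered with filterByExpr (12789 genes left), normalised with TMM and tested KO against WT with edgeR 4.0.16 in R 4.3.3 (quasi-likelihood, two-sided, genotype as only term, Benjamini-Hochberg over all genes, called under 0.05). Intervals are at 95%, from the fit's t quantile. DESeq2 1.42.0, limma 3.58.1 on log2(FPKM + 1) with a mean FPKM of at least 1, other scalings and filters, leaving out each library, and a replicate block were alternatives. Scripts were tested on simulated data. The genes and lists were chosen with earlier results of these data known. Described in full were called genes, the 2 largest increases and decreases per complex, Cyc1, Cycs, the isoform sets and, per list, called genes or the 1 with the largest change; others were named after their values were seen. Gene spans come from GENCODE M21 and promoters from RefSeq.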

Additional observations from a re-analysis of the deposited data

How the results depend on the processing

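Of 456 values of the 38 genes under alternatives, 407 kept direction and side of the threshold, 46 changed sign and 3 passed the threshold, all of Uqcrfs1; 22 genes kept their sign throughout. Genes called were 29 by edgeR, 148 with DESeq2, 0 in each of the 3 limma settings, 214 with the replicate block and 10 to 245 leaving out 1 library (245 without WT replicate 2). Of the 38 genes, 1 was called with DESeq2, 1 with the replicate block (adjusted p = 0.0173), and 0 to 1 leaving out 1 library. The labels do not state that the numbers 1 and 2 pair libraries, and with 2 pairs the correlation of deviations (0.185) does not settle it; mt-Co2, mt-Co3 and Pnlip (32.5 and 350 CPM in KO, 64.5 and 534 CPM in WT) split by number in both genotypes. Among list genes, Cmc1 was called with the block and without WT replicate 2, and mt-Co1 without WT replicate 1. Leaving out 1 library, the median log2 fold change ran from -0.079 to 0.0069 over all 38 genes, from -0.21 to 0.035 in complex III, -0.15 to 0.23 in cytochrome c, -0.073 to 0.098 in complex IV and -0.13 to -0.085 in complex V. Sign changes without a left-out library were all close to 0: Cox7a2 at -0.0041 (RLE and DESeq2), -0.020 (limma, pseudocounts 1 and 0.1), -0.011 (no count filter) and -0.0037 (library scaling undone); Atp5e at -0.0028 (RLE), -0.0030 (DESeq2), -0.0024 and -0.0025 (limma), -0.0095 (no count filter) and -0.0037 (replicate block); Atp5b at 0.045 and Cycs at -0.094 and -0.098 (limma); Cox6c at -0.0057 and Atp5h at -0.0041 (no count filter). Leaving out 1 library turned the sign of 15 genes, whose values ran from -0.16 to 0.24 (Cox6a1), -0.11 to 0.11 (Cox7a2), -0.18 to 0.15 (Atp5e), -0.19 to 0.23 (Atp5h), -0.15 to 0.025 (Atp5o), -0.23 to 0.18 (Atp5sl), -0.083 to 0.18 (Uqcr10), -0.23 to 0.062 (Uqcrb), -0.073 to 0.078 (Cox6c), -0.017 to 0.21 (Cox7c), -0.061 to 0.15 (Atp5c1), -0.15 to 0.23 (Cycs), -0.32 to 0.10 (Cox5b), -0.64 to 0.025 (Cox5a) and -0.085 to 0.040 (Atp5l). A library left alone in its group is assumed there to vary like the other group. The causes were not tested. With 2 pools per group, the unadjusted 95% interval reached a median of 0.38 (log2) to either side of the estimate. Larger differences can also miss the adjusted threshold, as Uqcrfs1 did by edgeR at 0.84. Atp5k rests on the fewest fragments.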
